A study of Arabidopsis thaliana with 18 samples.

Results

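PDF1.2b and PDF1.4 are plant defensin genes of Arabidopsis thaliana, and their signal was followed on 18 Affymetrix ATH1 arrays by genotype, spray and time. The genes were chosen with earlier results of these data known, and the single-gene p-values below do not allow for that choice. Members were then taken by name. They are every probe set, the group of short probes that measures 1 transcript on this array, that the platform annotation pairs with either gene. Each gene had 1 such probe set, so that the account rests on 2 of 22746 probe sets that are not controls. PDF1.4 (AT1G19610, also called LCR78) is read by 261135_at. PDF1.2b (AT2G26020) is read by 257365_x_at, and an identifier that ends in _x_at marks a set in which some probes may also match other sequences. Which transcripts besides PDF1.2b contribute to that signal was not tested. In the gene order of the TAIR10.1 annotation the gene just before PDF1.2b is another defensin, PDF1.3, which was not analysed here on its own and whose share of the PDF1.2b signal was not tested.

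The study sprayed plants of the ethylene-insensitive mutant etr1-1 and of the wild type Col-0 with the gibberellin GA4 or with water. Each array held RNA from whole plants aged 14 days, grown on agar medium with sucrose at 22 degrees with 16 h of light. The etr1-1 allele is in the Col background and all plants of a group share one genotype, with no untreated group: every plant was sprayed. For each genotype there were 3 arrays at 1 h after GA4 and 3 at 1 h after water, and 1 array for each of 3 further conditions: 0 h after water, 30 min after GA4 and 3 h after GA4. This makes 10 groups. The array titles begin with DV001, which holds 1 array of every group, or DV002, which holds replicates 1 and 2 of the 4 groups at 1 h. Whether replicates came from plants grown apart is not in the labels, so the p-values below speak of the scatter among these arrays, and that scatter may be technical. In RNA from whole plants, fewer cells of a type and less RNA per cell cannot be told apart.

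Plant defensins are small secreted peptides, held together by disulfide bridges between cysteines, many of which inhibit fungal growth. PDF1.2 is the classic defence marker of leaves that needs ethylene and jasmonate together: both signals meet at transcription factors of the ERF family such as ERF1 and ORA59. Ethylene binds receptors such as ETR1, and in etr1-1 a dominant receptor allele keeps the pathway shut off whether or not the hormone is present. GA4 is a bioactive gibberellin, a growth hormone that acts through GID1 receptors and the removal of DELLA repressors.

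The arrays were on a common scale as deposited: the mean intensity without the lowest and highest 2% of probe sets was 100.0 on every array, and the median lay between 45.3 and 49.7. Correlations between arrays ran from 0.921 to 0.988 and no 2 arrays were identical. Of the probe sets, 13513 are annotated with 1 gene, 503 with several and 8730 with none in the table used. Summed intensity of the leaf markers LHCB4.1 and RCA was 5500 to 6185 in etr1-1 and 4751 to 7002 in Col-0, and that of the root markers PYK10, EXPA7, EXPA18 and AGL42 was 2461 to 3063 in etr1-1 and 2422 to 3013 in Col-0. The root sum was mostly PYK10 (2260.5 to 2933.7), while EXPA7 (34.5 to 75.2), EXPA18 (34.4 to 64.7) and AGL42 (20.8 to 39.7) were dim. Leaf and root markers were thus measurable on every array, the root signal resting mainly on PYK10. None of these 6 genes was called different between the genotypes. The other genes of those lists were not analysed here. The log2 ratio of 3' to 5' control probe sets, a measure of RNA integrity and labelling, was 0.25 to 0.71 for GAPDH in etr1-1 and 0.19 to 1.19 in Col-0. For actin it was higher, at 1.73 to 3.01 in etr1-1 and 1.45 to 3.02 in Col-0, a strong 3' excess in both genotypes.

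PDF1.4 gave a higher signal in etr1-1 than in Col-0 at every spray and time. Its median intensity was 54.2 over the 9 etr1-1 arrays (31.0 to 72.9), against 20.6 over the 9 Col-0 arrays (13.0 to 40.7). PDF1.2b ran the other way, with a median of 21.3 in etr1-1 (7.5 to 48.2), against 29.1 in Col-0 (15.3 to 72.0), and the genotypes overlapped widely. Both are dim transcripts on this array. Their mean log2 values, 5.46 for PDF1.2b and 5.69 for PDF1.4, lay above those of 37.2% and 42.6% of the probe sets.

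**Figure D1:**
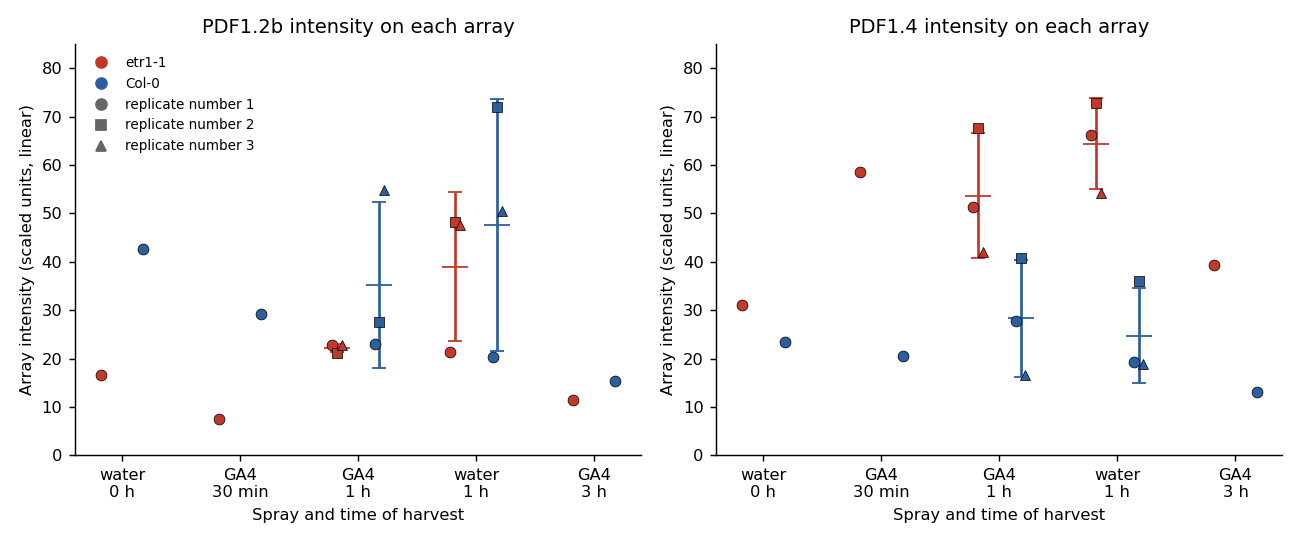
Intensity (linear, in the deposited scaled units) of PDF1.2b and PDF1.4 on each of the 18 arrays, by spray and time of harvest, with etr1-1 in red left of Col-0 in blue; horizontal bars and whiskers are the mean and SD of the 3 arrays at 1 h, and marker shapes are replicate numbers. PDF1.4 separates the genotypes at every condition. The PDF1.2b arrays at 1 h spread from 20.3 to 72.0, and the genotypes overlap after water. After GA4 the highest etr1-1 array of PDF1.2b (22.7) is just below the lowest Col-0 array (23.1). The 2 panels show different probe sets, whose levels are not comparable with each other.

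PDF1.4 is a member of the low-molecular-weight cysteine-rich peptide family as well as a defensin. In etr1-1 its intensity was 31.0 at 0 h after water, 58.6 at 30 min after GA4 and 39.4 at 3 h after GA4, against 23.5, 20.6 and 13.0 at the same conditions in Col-0. At 1 h after GA4 the etr1-1 arrays of replicates 1 to 3 gave 51.3, 67.6 and 42.1, against 27.7, 40.7 and 16.5 in Col-0. At 1 h after water they gave 66.1, 72.9 and 54.2 in etr1-1, against 19.2, 36.0 and 18.8 in Col-0. Replicate 2 was the highest of its 3 arrays in all 4 groups, and at 1 h the genotypes did not overlap after either spray, though after GA4 the lowest etr1-1 array (42.1) was only just above the highest Col-0 array (40.7). The Col-0 values of 40.7 and 36.0 were above the etr1-1 array at 0 h.

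By group means the order of PDF1.4 was etr1-1 at 1 h after water (64.4 ± 9.47, SD, n = 3), etr1-1 at 30 min, etr1-1 at 1 h after GA4 (53.7 ± 12.9, SD, n = 3), etr1-1 at 3 h and etr1-1 at 0 h. The 5 Col-0 groups followed: 1 h after GA4 (28.3 ± 12.1, SD, n = 3), 1 h after water (24.7 ± 9.82, SD, n = 3), 0 h, 30 min and 3 h. Neighbours in this order were within 1 SD of the 1 h groups, except that etr1-1 at 1 h after GA4 stood more than its SD above the single etr1-1 array at 3 h. The boundary between the genotypes, 31.0 in etr1-1 at 0 h and 28.3 in Col-0 at 1 h after GA4, was within that spread. The ratio of mean intensities, etr1-1 over Col-0, was 2.24 over all arrays (53.7 ± 14.1 against 24.0 ± 9.19, SD, n = 9 each) and 2.23 over the arrays at 1 h.

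The mean genotype difference of PDF1.4 exceeded its spread between array pairs. Arrays of the same spray, time and replicate number form 9 pairs of etr1-1 and Col-0. On the scale of log2(intensity + 16), on which all differences below are given, the difference was 0.25 at 0 h, 1.03 at 30 min and 0.93 at 3 h. It was 0.62, 0.56 and 0.84 in the pairs at 1 h after GA4 and 1.22, 0.77 and 1.01 in those at 1 h after water. The smallest difference was thus at 0 h and the largest at 1 h after water. The mean was 0.80 ± 0.29 (SD, n = 9 pairs), with 9 of 9 pairs higher, and an exact two-sided sign-flip permutation test gave p = 0.00391, the smallest that 9 pairs allow. Of all tested probe sets, 3.91% were higher in all 9 pairs. With the 6 pairs at 1 h alone the mean was 0.84 and the exact p was 0.0312, again the smallest possible.

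Across all 15922 probe sets tested, limma's fit of the 18 arrays called PDF1.4 higher in etr1-1 by 0.80 ± 0.12 (SE, 95% interval 0.55 to 1.06; adjusted p = 4.55e-04), 1.75-fold on this scale. The size depends on the offset: it was 1.16 with an offset of 1 and 0.48 with an offset of 50, called both times. The same fit called 6.61% of probe sets, 3.28% higher and 3.34% lower, and did not call PDF1.2b, so 1 of the 2 genes passed. Leaving out any 1 of the 18 arrays left the PDF1.4 difference between 0.76 and 0.87, called each time. Within the 10 arrays of DV001 it was 0.81 ± 0.12 (SE; limma adjusted p = 0.00139, where 8.22% were called). Within the 8 arrays of DV002 it was 0.79 ± 0.15 (SE; limma adjusted p = 0.0364, where 1.09% were called).

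**Figure D2:**
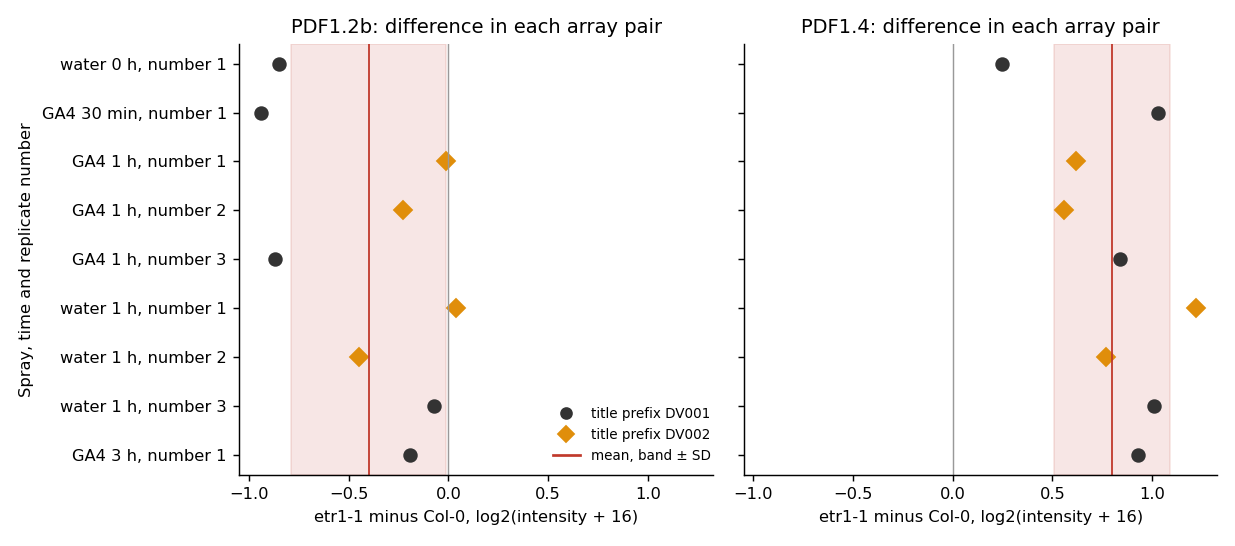
Difference of etr1-1 minus Col-0 in log2(intensity + 16) for each of the 9 array pairs, by spray, time and replicate number; circles are pairs of DV001 arrays, diamonds pairs of DV002 arrays, the red line is the mean and the band its SD. All 9 PDF1.4 pairs lie right of 0 (0.25 to 1.22), and 8 of 9 PDF1.2b pairs lie left of it (lowest -0.94, with 0.04 in the remaining pair).

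At 1 h alone, with 3 arrays a group, the PDF1.4 difference kept its size and its call depended on the replicate block. After GA4 it was 0.67 ± 0.22 (SE, 95% interval 0.21 to 1.14; limma adjusted p = 0.388), a comparison in which 0.201% of probe sets were called. With the replicate number as a block the SE was 0.12 and limma's adjusted p 0.0121, with 1.87% called. After water it was 1.00 ± 0.22 (SE, 95% interval 0.54 to 1.47; limma adjusted p = 0.11), where 0.214% were called, and with the block the SE was 0.12 and limma's adjusted p 5.82e-04, with 1.41% called. With 3 arrays against 3, 6.0% of probe sets were higher in etr1-1 without overlap after GA4 and 5.57% after water, and PDF1.4 was among them both times.

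PDF1.2b belongs to the PDF1.2 group, whose members encode near-identical defensins induced through ethylene and jasmonate. In etr1-1 its intensity was 16.6 at 0 h after water, 7.5 at 30 min after GA4 and 11.5 at 3 h after GA4, against 42.7, 29.1 and 15.3 in Col-0. At 1 h after GA4 the etr1-1 arrays gave 22.7, 21.1 and 22.7, against 23.1, 27.5 and 54.8 in Col-0. There the genotypes did not overlap, though the highest etr1-1 array (22.7) was only just below the lowest Col-0 array (23.1). The share of all probe sets lower without overlap is not given here. At 1 h after water they gave 21.3, 48.2 and 47.5 in etr1-1, against 20.3, 72.0 and 50.5 in Col-0. The 4 arrays of replicate 1 at 1 h all lay between 20.3 and 23.1, whatever the genotype or spray, while those of replicate 2 ran from 21.1 to 72.0 and those of replicate 3 from 22.7 to 54.8.

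By group means the order of PDF1.2b was Col-0 at 1 h after water (47.6 ± 26.0, SD, n = 3), Col-0 at 0 h, etr1-1 at 1 h after water (39.0 ± 15.3, SD, n = 3), Col-0 at 1 h after GA4 (35.1 ± 17.2, SD, n = 3) and Col-0 at 30 min. Below these stood etr1-1 at 1 h after GA4 (22.2 ± 0.924, SD, n = 3), etr1-1 at 0 h, Col-0 at 3 h, etr1-1 at 3 h and etr1-1 at 30 min. Only the etr1-1 group at 1 h after GA4 differed from both of its neighbours, each a single array, by more than its own SD, which was the smallest of the 4. Over the 9 etr1-1 arrays the mean intensity was 24.3 ± 14.3 (SD), against 37.3 ± 18.9 (SD) over the 9 Col-0 arrays, a ratio of 0.653.

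The PDF1.2b difference varied from pair to pair more than that of PDF1.4. The pair differences were -0.85 at 0 h, -0.94 at 30 min and -0.19 at 3 h. They were -0.01, -0.23 and -0.87 at 1 h after GA4 and 0.04, -0.45 and -0.07 at 1 h after water. The lowest values were at 30 min, in replicate 3 at 1 h after GA4 and at 0 h, all pairs of DV001 arrays. The value at 30 min is a ratio of intensities of 0.258. The etr1-1 readings at 30 min (7.5) and 0 h (16.6) were low, above only 15.7% and 25.4% of probe sets on their arrays. The mean over 9 pairs was -0.40 ± 0.39 (SD), with 8 of 9 pairs lower, and the exact two-sided sign-flip permutation test gave p = 0.0117. In 9.36% of all tested probe sets at least 8 of the 9 pairs were lower. With the 6 pairs at 1 h alone the mean was -0.27 and the exact p was 0.0938.

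In limma's fit of the 18 arrays PDF1.2b differed by -0.40 ± 0.17 (SE, 95% interval -0.75 to -0.05; unadjusted p = 0.0288, adjusted p = 0.184) and was not called. With the array pair (same spray, time and replicate number) as the replicate block, the SE was 0.11 and limma's adjusted p 0.0218. That fit called 14.4% of all probe sets. The value within DV001 was -0.58 ± 0.14 (SE; limma adjusted p = 0.025), and within DV002, which holds only arrays at 1 h, -0.17 ± 0.24 (SE; limma adjusted p = 0.804). Without replicate 1 of Col-0 at 1 h after water the difference was -0.52 (limma adjusted p = 0.0356), and without any other single array it was not called. At 1 h it was -0.37 ± 0.31 after GA4 (SE, 95% interval -1.03 to 0.29) and -0.16 ± 0.31 after water (SE, 95% interval -0.82 to 0.50). The difference after GA4 was -0.11 without replicate 3 of Col-0, and that after water turned to 0.12 without replicate 2 of Col-0. The residual SD of PDF1.2b in the 18-array fit was 0.41, against 0.19 expected by the fit's trend for probe sets of that brightness, and for PDF1.4 it was 0.29 against 0.18.

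GA4 gave no called change of either gene at 1 h. In etr1-1 PDF1.4 was lower after GA4 than after water in 3 of 3 numbered pairs, by -0.29, -0.09 and -0.27, and limma's difference was -0.22 ± 0.22 (SE, 95% interval -0.68 to 0.25). In Col-0 the pairs were 0.31, 0.12 and -0.10, with a difference of 0.11 ± 0.22 (SE, 95% interval -0.35 to 0.58). The difference between those responses, etr1-1 minus Col-0, was -0.33 ± 0.30 (SE, 95% interval -0.99 to 0.33; limma unadjusted p = 0.299). The intervals hold changes in either direction.

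PDF1.2b gave uneven pairs at 1 h after GA4. In etr1-1 the numbered pairs were 0.05, -0.79 and -0.71, and limma's difference was -0.48 ± 0.31 (SE, 95% interval -1.14 to 0.18; unadjusted p = 0.137). In Col-0 the pairs were 0.11, -1.02 and 0.09, with a difference of -0.27 ± 0.31 (SE, 95% interval -0.93 to 0.39). Over both genotypes the difference was -0.38 ± 0.22 (SE, 95% interval -0.84 to 0.09; limma unadjusted p = 0.103), and the responses differed by -0.21 ± 0.43 (SE, 95% interval -1.14 to 0.72). With the replicate block the interval was -0.95 to -0.02 in etr1-1 (limma unadjusted p = 0.0423, adjusted p = 0.969) and -0.71 to -0.05 over both genotypes (limma unadjusted p = 0.027, adjusted p = 0.948), so that both lay below 0 and neither passed the adjustment. Replicate 1 showed almost no difference in either genotype, and in Col-0 the lower mean came from replicate 2 alone. Without the block all adjusted p-values of both genes for GA4 were 1. Of all probe sets 0.0% were called by limma in each of these comparisons, with or without the replicate block, and at an unadjusted p under 0.05 the counts were 288 in etr1-1, 96 in Col-0, 255 over both genotypes and 112 for the difference of responses. With the block those counts were 767 in etr1-1, 325 in Col-0, 799 over both genotypes and 338 for the difference of responses.

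**Figure D3:**
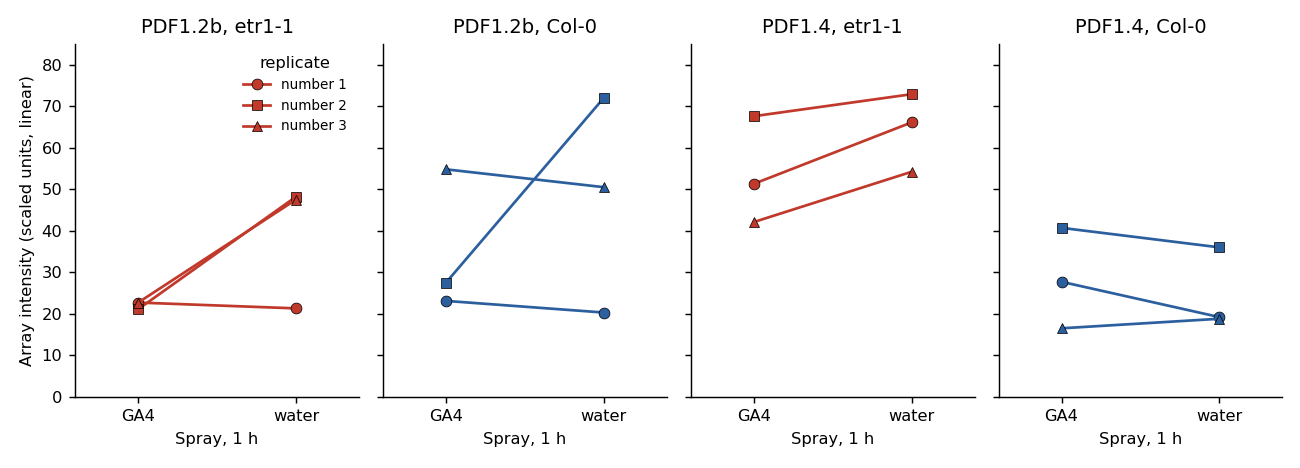
Intensity (linear) of PDF1.2b and PDF1.4 at 1 h after GA4 and after water, with a line joining the arrays of the same replicate number in etr1-1 (red) and Col-0 (blue). PDF1.4 is lower after GA4 in all 3 etr1-1 pairs (51.3, 67.6 and 42.1, against 66.1, 72.9 and 54.2 after water), and PDF1.2b is lower in 2 of 3 etr1-1 pairs and 1 of 3 Col-0 pairs.

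The time course rests on the single DV001 array of each group, so its steps have no replicate check and no test. PDF1.2b was at 11.5 in etr1-1 at 3 h after GA4, against 47.5 at 1 h after water, a difference of -1.21, and at 15.3 in Col-0, against 50.5, a difference of -1.09. A fall of at least 2-fold on this scale between those arrays was seen in 0.565% of probe sets in etr1-1 and 0.502% in Col-0. The PDF1.2b readings at 3 h were low, above only 18.8% of probe sets on the etr1-1 array and 25.1% on the Col-0 array. The size of these falls depends on the 1 h water array used. Outside DV001, replicate 1 at 1 h after water was at 21.3 in etr1-1 and 20.3 in Col-0, and replicate 2 at 48.2 and 72.0. The array at 3 h after GA4 differed from that at 1 h after GA4 by -0.49 in etr1-1 and by -1.18 in Col-0, where 0.521% of probe sets showed such a fall. The Col-0 array used at 1 h after GA4 was at 54.8, and the Col-0 replicates outside DV001 were at 23.1 and 27.5. The array at 1 h after water differed from that at 0 h by 0.96 in etr1-1 and 0.18 in Col-0, and the etr1-1 array at 0 h, which had no GA4, was at 16.6, against 42.7 in Col-0. There was no water array at 3 h, and time and GA4 cannot be told apart there.

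The steps of PDF1.4 ran from -0.45 to 0.67. In etr1-1 it was 0.67 higher at 30 min after GA4 than at 0 h and 0.58 higher at 1 h after water than at 0 h, while 3 h after GA4 differed from 1 h after water by -0.34. In Col-0 the same steps were -0.11, -0.18 and -0.26. The 12 steps computed for each gene share arrays and are not independent. The Col-0 falls of PDF1.2b given above, -1.09 and -1.18, end at the same 3 h array. None of the PDF1.4 steps reached 2-fold on this scale. For PDF1.2b 3 of 12 did, all of them falls to the arrays at 3 h. That count depends on the offset: with an offset of 1, 7 of 12 PDF1.2b steps reached 2-fold, 6 falls and 1 rise, and no PDF1.4 step did. The rise was 1.46 in etr1-1, at 1 h after water relative to 0 h, and falls outside the 3 h arrays were -1.05 at 30 min after GA4 relative to 0 h and -1.03 at 1 h after GA4 relative to water, both in etr1-1.

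The defensins as a family did not share a direction. The annotation lists 13 plant defensin genes, of which 10 had a named probe set and 6 passed the filter on low values. In the 18-array fit 1 was higher in etr1-1 (PDF1.4), 1 was lower (PDF2.2) and 4 were not called, where 6.61% of all probe sets were called. Their median difference was -0.18, against 0.013 over all tested probe sets. With the replicate block 2 were higher (PDF1.4 and PDF2.1) and 3 lower (PDF1.2b, PDF2.2 and PDF2.5), where 7.45% of all probe sets were called higher and 6.91% lower.

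PDF2.2, a bright defensin of the second subfamily, ranged from 1128.8 to 1694.0 in etr1-1 and from 1610.0 to 2031.6 in Col-0, and was lower in 9 of 9 pairs, by -0.25 ± 0.07 (SE; limma adjusted p = 0.0272). Of all tested probe sets, 3.82% were lower in all 9 pairs. PDF2.1 was higher in 9 of 9 pairs, by 0.36 ± 0.11 (SE; limma adjusted p = 0.0581, and 0.00722 with the block). PDF2.5 was lower in 9 of 9 pairs, by -0.38 ± 0.13 (SE; limma adjusted p = 0.108, and 0.001 with the block). PDF2.3 differed by -0.10 ± 0.07 (SE; limma adjusted p = 0.442). Small differences of the same size as that of PDF1.2b were thus found on both sides within the family, and that of PDF1.4 was the largest of the 6 that passed the filter.

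The other member of the PDF1.2 group with a named probe set is PDF1.2 (AT5G44420, also called PDF1.2A), read by 249052_at. It did not pass the filter on low values, with 0.5 to 17.9 in etr1-1 (median 7.0), against 7.2 to 39.8 in Col-0 (median 12.7). It was lower in etr1-1 in 9 of 9 pairs, and a fit with no filter gave -0.54 ± 0.20 (SE; limma adjusted p = 0.158), not called. Both genes were thus lower on average in etr1-1 without a call in the 18-array fit. Because the PDF1.2b set ends in _x_at, they may not be independent, and shared signal between their probe sets was not tested. At 1 h PDF1.2 ran from 0.5 to 12.7 on arrays of replicate 1, 9.6 to 27.0 on replicate 2 and 15.4 to 39.8 on replicate 3, so that replicate 1 was low for it as for PDF1.2b. The remaining defensins with a probe set, PDF1.1, PDF2.4 and PDF2.6, never exceeded 16.6 and did not pass the filter.

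**Figure D4:**
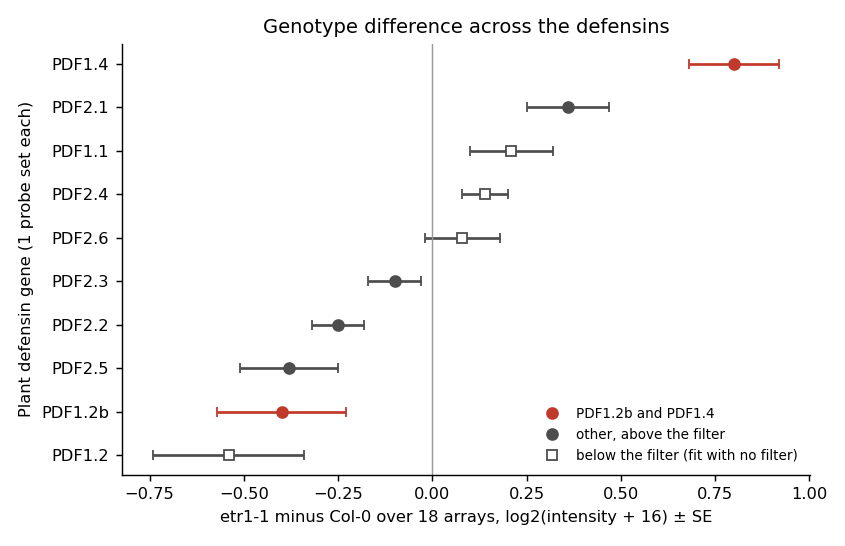
Difference of etr1-1 minus Col-0 over 18 arrays in log2(intensity + 16) ± SE for the 10 plant defensins with a named probe set; red circles are PDF1.4 and PDF1.2b, dark circles other defensins above the filter, and open squares those below it, from a fit with no filter. PDF1.4 (0.80) stands apart at the top, and PDF1.2 (-0.54), PDF1.2b (-0.40) and PDF2.5 (-0.38) lie at the bottom.

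Other genes of the defence and hormone pathways were few among the named probe sets. Of 11 defence outputs and regulators, 3 were named and tested, and 2 of them were higher in etr1-1 in the 18-array fit: THI2.2, a thionin, by 0.53 ± 0.12 (SE; limma adjusted p = 0.0108), and OSM34, an osmotin-like protein, by 0.30 ± 0.08 (SE; limma adjusted p = 0.027). Over all tested probe sets 3.28% were called higher in that fit. The thionin THI2.1, a jasmonate marker, differed by 0.27 ± 0.09 (SE; limma adjusted p = 0.0972) and was not called. Of 29 jasmonate genes only OPCL1, an enzyme of jasmonate synthesis, had a named probe set. It differed by 0.34 ± 0.15 (SE; limma adjusted p = 0.223, and 0.0039 with the block). Of 34 ethylene genes 2 had a named probe set, and neither was called. EIN3, the transcription factor at the end of ethylene signalling, was at -0.01 ± 0.08 (SE). RTE1, which promotes signalling by ETR1, was at -0.22 ± 0.09 (SE). WRKY53, the only one of 9 salicylate markers with a named probe set, differed by 0.20 ± 0.09 (SE) and was not called. Genes of these lists without a named probe set were not analysed, and whether an unnamed probe set measures them is not known here. The factors ERF1 and ORA59 and the receptor ETR1 were not analysed here.

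The 2 genes did not vary together. Their log2 values correlated at Pearson r = -0.14 and Spearman rho = -0.14 over the 18 arrays, where differences of genotype, spray and time enter the value. Over the 12 arrays at 1 h with group means removed, Pearson r was -0.02. PDF1.2b and PDF1.2 correlated at r = 0.54 and rho = 0.56 over 18 arrays, and at 0.43 over the 12 arrays with group means removed. How far shared signal of their probe sets enters these values was not tested. With group means removed PDF1.2b was nearer to PDF2.3 (0.79), the very dim PDF1.1 (0.66) and PDF2.5 (0.65), which also had lower means on the replicate 1 arrays.

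Among the other 8766 named probe sets tested, 5 were taken as most like each gene by Pearson r over the 18 arrays. For PDF1.4 they were AT1G65500 (r = 0.94), AT5G03350 (0.91), AT3G28220 (0.89), AT5G02940 (0.89) and AT1G70810 (0.89), and all 5 were called higher in etr1-1, the genotype difference being part of the likeness. AT1G65500 ranged from 119.4 to 319.5 in etr1-1, against 34.4 to 141.3 in Col-0. AT5G03350 ranged from 308.1 to 683.7 in etr1-1, against 68.6 to 267.3 in Col-0, with no overlap. For PDF1.2b the likeness was looser: DPL1, a sphingolipid phosphate lyase (0.73), AT1G75180 (0.71), AT5G58110 (0.71), AT1G19320 (0.70) and AT5G20790 (0.70). None of those 5 was called between the genotypes, and no other defensin was among the 5 of either gene.

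**Figure D5:**
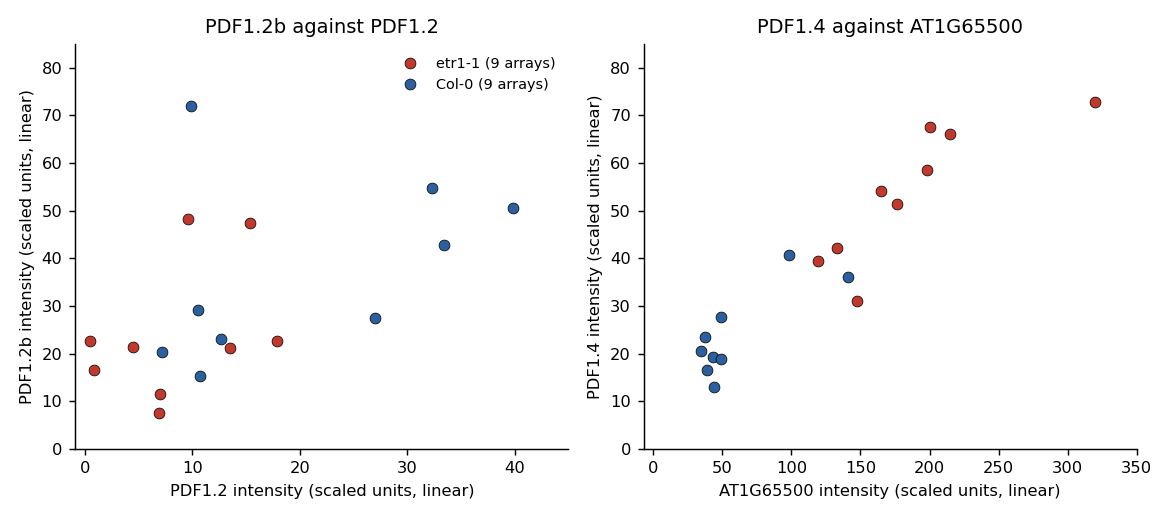
Intensity (linear) on each array of PDF1.2b against PDF1.2, and of PDF1.4 against AT1G65500, with etr1-1 arrays in red and Col-0 arrays in blue. PDF1.4 follows AT1G65500 across both genotypes (r = 0.94 on the log2 scale), and PDF1.2b follows PDF1.2 loosely (r = 0.54), with the highest PDF1.2b array, at 72.0, at a low PDF1.2 value.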

How the data were processed

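Biotin-labelled cRNA was hybridised to ATH1 arrays, per the labels' protocols. The values are linear intensities, 1 for each probe set on each array, as the authors deposited them. How they were computed from the scans is not stated in the labels or the value table. They were used as log2(intensity + 16) without further normalization. From 22746 probe sets (64 controls left out), those at or above the 30th percentile of mean log2 value over 18 arrays were tested (15922). Differences were fitted with limma 3.58.1 in R 4.3.3 (lmFit, eBayes with a variance trend), with Benjamini-Hochberg adjustment and a threshold of 0.05. The 18-array fit held a term for each of 5 spray and time conditions and 1 for genotype, and the 1 h fit a term for each of 4 groups over 12 arrays. Called means past that threshold, and the interval given is the 95% interval of the fit. Pairs were tested by an exact two-sided sign-flip permutation over 9 pairs. The number of arrays limits the precision.

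Replicate numbers come from the labels. At 1 h all 18 pairs of same-numbered arrays deviated together (r 0.126 to 0.70), and 12 of 12 arrays correlated best with their own number, so blocked values are given where they change a call. The named genes were both members, all defensins, the hormone, defence and tissue lists, and the 5 probe sets most like each member. The members and lists were chosen with earlier results of these data known. The fit was tested on simulated data. Alternatives were the offset (1 or 50), quantile normalization, no filter, no variance trend and a threshold of 0.1. Others were a replicate block, the title prefix as a block, either title prefix alone, and each array left out. The replicate block was the replicate number in the 1 h fit and the array pair in the 18-array fit.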

Additional observations from a re-analysis of the deposited data

How the results depend on the processing

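PDF1.4 over 18 arrays kept its direction and call under every alternative run. With the replicate block, the 18-array calls numbered 2286, against 1053 without it, PDF1.2b was called (-0.40, limma adjusted p = 0.0218), and at 1 h PDF1.4 was called after GA4 (0.67; 297 probe sets called, against 32) and after water (1.00; 224, against 34). It changed no other call of these 2 genes. With the title prefix as a block the counts were 1837 over 18 arrays, 137 after GA4 and 103 after water, where PDF1.4 was called (1.00). Within DV001 PDF1.2b was called (-0.58). The genotype comparison within DV002 was chosen after seeing the data and called 174 probe sets. The 1 h comparison after GA4 within DV002 called 18. At a threshold of 0.1 the counts were 1619 over 18 arrays and 54 after water. The pair test of PDF1.2b was past 0.05 with 9 pairs and not with the 6 at 1 h (-0.27).

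Leaving out 1 array moved PDF1.2b over 18 arrays between -0.52 and -0.32. The count after water moved between 21 and 43, lowest without Col-0 replicate 3 (21) and etr1-1 replicate 2 (22). The count after GA4 moved between 18 and 36, lowest without Col-0 replicates 3 (18) and 1 (19) and etr1-1 replicates 1 (19) and 3 (21). GA4 against water gave 0 to 1 calls in etr1-1 and over both genotypes, 1 without etr1-1 water replicate 3. Signs of uncalled GA4 differences also turned without 1 array, given here at the farthest: in Col-0 PDF1.2b to 0.01 without water replicate 2 and PDF1.4 to -0.08 without GA4 replicate 2, over both genotypes PDF1.4 to 0.05 without Col-0 GA4 replicate 3 and to 0.02 within DV002, and the PDF1.2b difference of responses to 0.15 without Col-0 water replicate 1 and to 0.09 within DV002. An offset of 1 enlarged single-array steps of PDF1.2b, and 7 of 12 then reached 2-fold, against 3 with an offset of 16. The cause of these changes was not tested, beyond fewer arrays in some fits. Both genes are dim, and low intensities limit fold changes on the offset scale.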

Other observations

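PDF1.4 also belongs to the low-molecular-weight cysteine-rich (LCR) peptides, a list chosen after its values were seen. Of 85 such genes, 12 had a named probe set and 5 passed the filter, and all 5 were defensins described above. The members outside the defensins, LCR24, LCR59 and LCR80, stayed at or under 15.6 on every array. LCR24 had a median of 11.5 in etr1-1 and 11.1 in Col-0.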
